A study of Mus musculus with 26 samples.

Results

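The genes described here are Pdlim4, Ggt5, Lypd6b, Cd163l1, Lpar3, Dlg2, Alpk2, Dsp, Myof and Mstn, 10 of the 24411 genes in the count table. They were picked by symbol because they were among the leading rises in regulatory T cells (Treg) with a mutant Foxp3 gene, either Foxp3R397W or Foxp3KO. The question asked of them was whether they are genes of conventional T cells or genes that neither conventional nor regulatory cells normally show. The fold changes of the Foxp3R397W and Foxp3KO comparisons chose these genes, so their values there are given as a description, with no test. Their levels in the other 9 groups took no part in the rule of choice and were tested. The choice was made with earlier results of these data known, so these tests may not be fully independent of it.

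Foxp3 is the transcription factor that defines the Treg lineage, and it both raises genes of Treg function and keeps down genes of conventional T cells. Naive T cells recirculate through lymph node and spleen, and after antigen contact they give rise to effector cells with another set of genes. Treg have the same division into central (resting) and effector cells, so a gene that is raised in mutant Treg can be set against all of these states.

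Poly(A) RNA was sequenced in 26 libraries, 2 for each of 13 groups of CD4+ T cells, all taken fresh from spleen and lymph nodes of C57BL6/J mice whose age the labels do not give. Reporters expressed with Foxp3 (human CD2, GFP or YFP) marked the cells to sort. Foxp3R397W Treg were CD4+hCD2+GFP- cells of Foxp3R397W-IRES-hCD2/Foxp3-IRES-GFP mice, and Foxp3KO Treg were the same cells of Foxp3fs101-IRES-hCD2/Foxp3-IRES-GFP mice. Each had its own WT Treg control from Foxp3WT-IRES-hCD2/Foxp3-IRES-GFP mice, called the R397W control and the KO control below, so all of these mice also carried a GFP-marked Foxp3 allele. WT Treg (CD4+hCD2+) and conventional cells (Tconv, CD4+hCD2-) came from Foxp3-IRES-hCD2 mice, and BATFKO Treg from Foxp3-IRES-hCD2 mice with Batf-/-. WT Treg YFP and BATFcKO Treg YFP were CD4+YFP+hCD2- cells of Foxp3-IRES-YFPCre/Foxp3-IRES-hCD2 mice, the second with Batfflox/flox, so that the Cre was driven by Foxp3. Central Treg (cTreg, CD4+hCD2+CCR7hiCD62LhiCD44lo), effector Treg (eTreg, CD4+hCD2+CCR7loCD62Llo), naive conventional (Tnaive, CD4+hCD2-CCR7hiCD62LhiCD44lo) and effector conventional cells (Teff, CD4+hCD2-CCR7loCD62Llo) came from Foxp3-IRES-hCD2 mice.

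Library totals ran from 5615929 to 34613707 reads, and the Foxp3KO set was the deepest. Foxp3 itself stood at 359 and 343 CPM in Foxp3R397W Treg against 452 and 380 in their control (log2 change -0.25 ± 0.15, edgeR adjusted p = 0.476). In Foxp3KO Treg it stood at 109 and 113 CPM against 348 and 326 (-1.60 ± 0.15, edgeR adjusted p = 2.03e-06). CPM are counts scaled to a common library size with TMM factors, and they are not corrected for gene length. Log2 changes are given ± SE, means ± SD of 2 libraries, and a gene was called at an edgeR adjusted p below 0.05 over all 12227 genes tested. The labels title Tconv as conventional cells but name their cell type Treg (CD4+hCD2-), and Foxp3 stood at 4.07 and 2.57 CPM there. Nothing says that the libraries of a group came from separate animals, so the p-values rest on a spread between libraries that may be technical. That spread was shared over all 26 libraries in 1 fit, although the groups were unlike in it. The r of log2 CPM between the 2 libraries was 0.976 to 0.981 in WT Treg, BATFKO Treg and Tconv. In the other groups it was 0.989 to 0.997, so p-values of those 3 groups may be too small. In bulk RNA, more cells with a transcript and more transcript per cell cannot be told apart.

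Promoter sequences of 7 of the 10 were matched in RefSeq (GRCm38.p6, the mm10 build), and those of Dlg2, Cd163l1 and Lpar3 are not printed. The 4 printed are of genes highest in naive conventional cells (Pdlim4), higher in effector gates (Dsp) or low outside the mutants (Myof and Mstn). Each is the 250 bases before the annotated start, read 5′ to 3′ on the strand of the gene. The windows are Pdlim4 (chr11:54069018-54069267, minus strand), Dsp (chr13:38151044-38151293, plus strand), Myof (chr19:38043578-38043827, minus strand) and Mstn (chr1:53061390-53061639, plus strand). Capitals mark matches, on either strand, to letters of factors that act with Foxp3 or in activated T cells: forkhead (TGTTTAC or TGTTTGC), AP-1 (TGANTCA), NFAT (GGAAA) and Runx (TGTGGT).
Pdlim4: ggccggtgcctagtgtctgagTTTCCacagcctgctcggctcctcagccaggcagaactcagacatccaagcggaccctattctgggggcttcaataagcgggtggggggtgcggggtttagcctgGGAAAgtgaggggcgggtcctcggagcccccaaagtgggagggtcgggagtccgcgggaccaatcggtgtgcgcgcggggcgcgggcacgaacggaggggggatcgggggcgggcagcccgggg
Dsp: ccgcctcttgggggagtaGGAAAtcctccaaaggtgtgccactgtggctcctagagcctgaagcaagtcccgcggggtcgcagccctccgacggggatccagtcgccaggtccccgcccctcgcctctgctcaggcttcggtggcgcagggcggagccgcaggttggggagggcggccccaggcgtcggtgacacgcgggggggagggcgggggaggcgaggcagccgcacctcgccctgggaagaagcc
Myof: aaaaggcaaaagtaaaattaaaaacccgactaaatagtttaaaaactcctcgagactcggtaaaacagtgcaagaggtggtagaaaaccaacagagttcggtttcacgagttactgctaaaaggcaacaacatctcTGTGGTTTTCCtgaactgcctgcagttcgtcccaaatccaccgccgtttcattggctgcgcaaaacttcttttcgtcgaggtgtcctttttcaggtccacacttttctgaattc
Mstn: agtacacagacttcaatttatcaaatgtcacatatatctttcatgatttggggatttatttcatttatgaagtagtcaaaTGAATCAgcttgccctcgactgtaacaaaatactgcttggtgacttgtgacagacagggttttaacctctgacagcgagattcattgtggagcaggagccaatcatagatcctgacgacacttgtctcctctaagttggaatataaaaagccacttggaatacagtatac
Pdlim4 held 2 NFAT matches and Dsp 1, Myof held 1 Runx and 1 NFAT match side by side, and Mstn held 1 AP-1 match. None of the 4 windows held either forkhead motif. Among 32851 RefSeq promoter windows of this length, 55.6% held the NFAT letters, 14.1% Runx, 6.75% AP-1, and 3.17% and 4.30% the forkhead letters TGTTTAC and TGTTTGC. A match describes these letters and shows no binding. Gene models on the opposite strand overlap Ggt5, Dsp, Lypd6b, Dlg2 and Alpk2, and no source used here says whether the counting used the strand, so values of these 5 genes may hold reads of the overlapping models. Further models on its own strand overlap Dlg2, whose counts they may affect whatever the strand setting.

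As genes chosen for a rise there, all 10 were higher in both libraries of each mutant than in both of its control libraries. The share of all tested genes separated in this way was not counted. By the other measure, a call, 2.18% of all tested genes were higher in Foxp3R397W Treg and 2.62% in Foxp3KO Treg. The 10 are among them by the choice of the genes. Their median log2 change was 4.67 in Foxp3R397W Treg (4.71 with Lpar3 at its bound) and 2.57 in Foxp3KO Treg, against medians of -0.01 and 0.01 over all tested genes. In rank of fitted log2 change over all genes, which for Lpar3 depends on the prior count, they ran from 1 (Lpar3) to 93 (Lypd6b) in Foxp3R397W Treg and from 8 (Mstn) to 79 (Cd163l1) in Foxp3KO Treg. In all, 170 genes were called higher in both mutants, which is 63.7% of the 267 called higher in Foxp3R397W Treg and 53.1% of the 320 in Foxp3KO Treg.

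**Figure D1:**
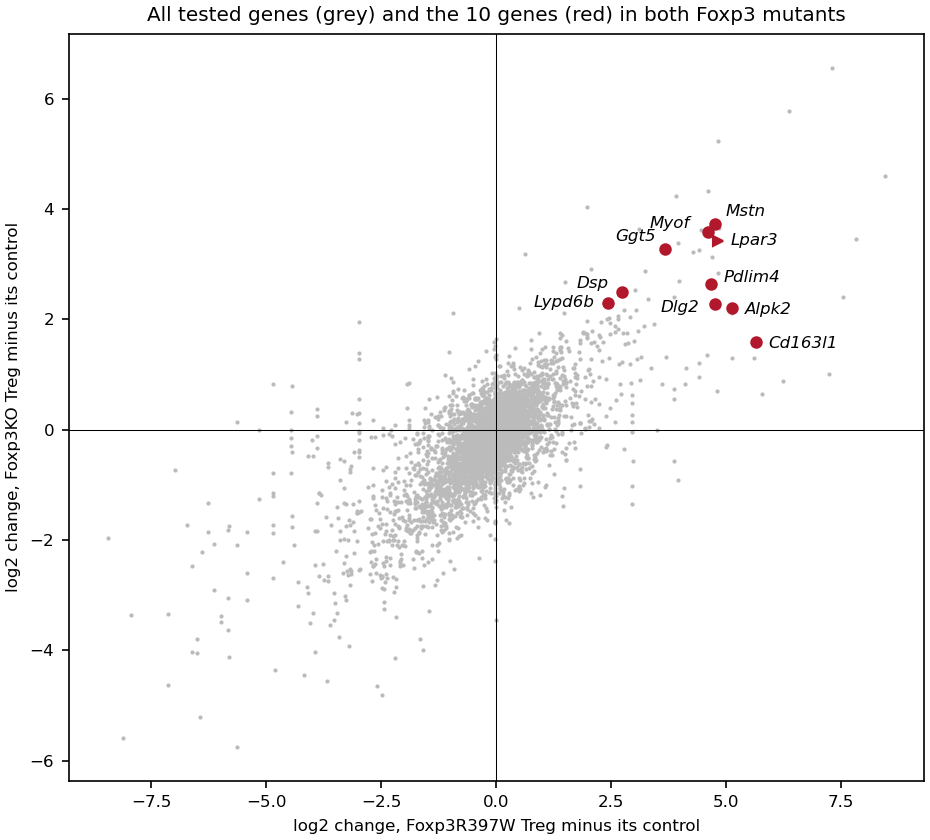
Log2 change of every tested gene in Foxp3R397W Treg (x axis) and Foxp3KO Treg (y axis), each minus its own control, with the 10 genes in red. All 10 lie in the upper right, by the choice of the genes; Lpar3 (triangle) is drawn at its lower bound on the x axis because its control held 0 reads, genes with a control of 1 to 3 reads are drawn at the ratio of counts, and grey points of genes with few reads depend on the fit's prior count.

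Ggt5, Lypd6b and Pdlim4 had the higher mean in Foxp3KO Treg. Ggt5, which encodes a gamma-glutamyltransferase that converts leukotriene C4, stood at 32.3 and 30.2 CPM in Foxp3R397W Treg and at 36.6 and 32.4 in Foxp3KO Treg. Its controls stood at 1.53 and 3.37, and at 3.78 and 3.37 CPM, so the log2 changes were 3.68 ± 0.25 and 3.27 ± 0.19. Lypd6b, which encodes a membrane-anchored protein of the Ly6 and uPAR domain family, reached 11.2 and 15.1 CPM in Foxp3R397W Treg and 19.3 and 18.9 in Foxp3KO Treg, from 3.06 and 1.77, and 4.27 and 3.47. Pdlim4, a PDZ and LIM domain adaptor of the actin cytoskeleton, reached 3.67 and 4.25 CPM against 1 read in each R397W control library, and 6.07 and 5.02 against 1.30 and 0.506. For Ggt5 the means of the mutants differed by less than the Foxp3KO libraries did from each other.

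Myof, Mstn, Dlg2, Alpk2, Cd163l1 and Lpar3 had the higher mean in Foxp3R397W Treg. Mstn, which encodes myostatin, a TGF-beta family ligand known for limiting muscle growth, stood at 18.8 and 7.17 CPM there and at 3.61 and 4.83 in Foxp3KO Treg, from 0.122 to 0.482 in the 4 control libraries. Myof, which encodes myoferlin, a protein of membrane fusion and repair, stood at 11.3 and 8.20, and at 5.84 and 3.62 CPM. The scaffold gene Dlg2, of the membrane-associated guanylate kinases, stood at 11.2 and 6.30, and at 2.46 and 1.89 CPM. Alpk2, an alpha kinase gene, stood at 10.5 and 6.15, and at 3.48 and 2.69 CPM. Cd163l1, a scavenger receptor cysteine-rich gene known from gamma-delta T cells in mice, stood at 8.31 and 7.47, and at 3.02 and 1.5 CPM, and its log2 change of 1.60 ± 0.45 in Foxp3KO Treg was 1.03 without library 1. Lpar3, which encodes a G protein-coupled receptor for lysophosphatidic acid, stood at 9.10 and 4.39 CPM against 0 reads in the R397W control, at least 28.3-fold higher, and at 1.87 and 2.30 against 0.244 and 0.135 CPM in the Foxp3KO set. Foxp3R397W library 1 was above library 2 for Mstn, Myof, Dlg2, Alpk2, Cd163l1 and Lpar3. Dsp, which encodes desmoplakin, the link between desmosomes and intermediate filaments, stood at 49.8 and 30.0 CPM in Foxp3R397W Treg, 26.7 and 32.5 in Foxp3KO Treg, and 5.04 to 6.59 in the 4 control libraries. The mutants have separate controls, and the difference between them was not tested.

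**Figure D2:**
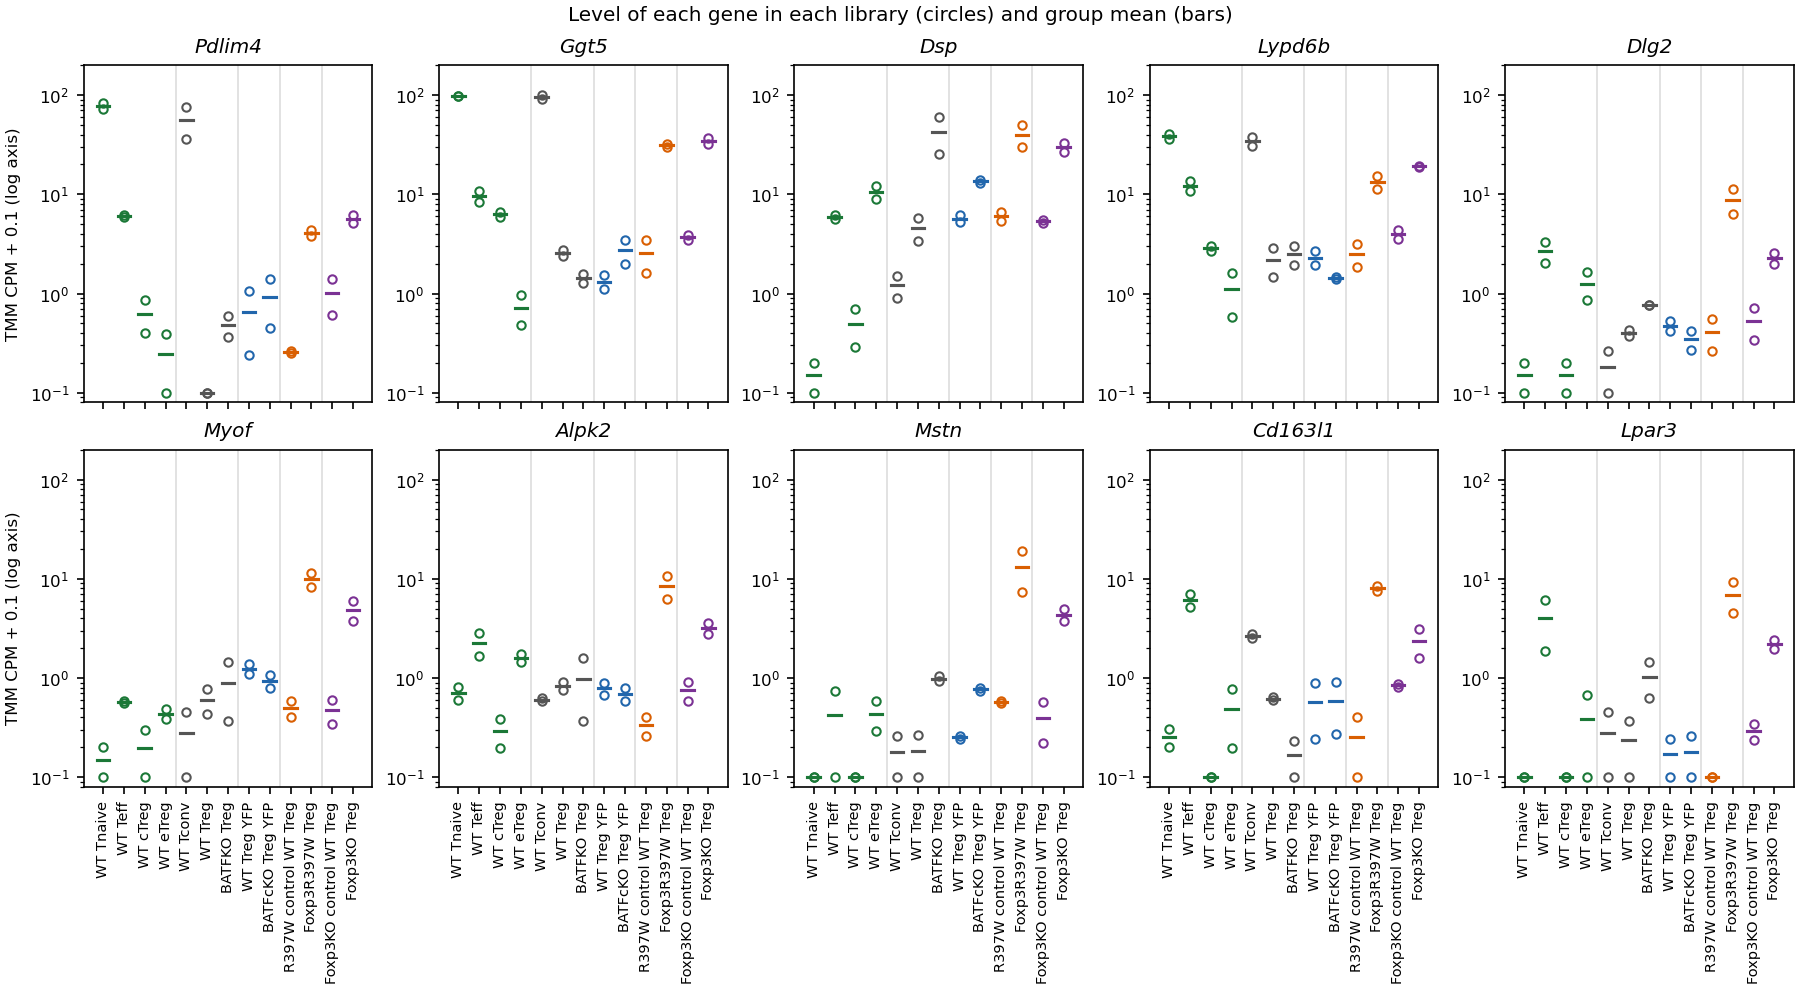
TMM-scaled CPM plus 0.1 (log axis) of the 10 genes in each of the 26 libraries (circles), with the mean of each group (bars), by group along the x axis; colours and grey lines mark the sets of groups compared with each other. Pdlim4, Ggt5 and Lypd6b are highest in Tnaive and Tconv, whereas Myof and Mstn reach 1.38 CPM in both libraries only in the Foxp3 mutant groups.

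Pdlim4, Ggt5 and Lypd6b were highest in naive conventional T cells and in Tconv. Pdlim4 (chr11:54054928-54069014) stood at 84.0 and 72.2 CPM in Tnaive and at 0.752 and 0.297 in cTreg, a log2 change of -7.17 ± 0.51 (edgeR adjusted p = 1.32e-08). Ggt5 (chr10:75589340-75617200) stood at 98.4 and 97.5 CPM in Tnaive and at 6.58 and 5.85 in cTreg (-3.97 ± 0.20, edgeR adjusted p = 6.79e-11). Lypd6b (chr2:49787688-49948849) stood at 40.3 and 36.4 CPM in Tnaive and at 2.92 and 2.58 in cTreg (-3.80 ± 0.29, edgeR adjusted p = 1.55e-08). They were the only 3 of the 10 genes called between cTreg and Tnaive, where 4.29% of all tested genes were called lower. Without cTreg library 1 the change of Pdlim4 was -7.98. No library of cTreg reached the level of a Tnaive library for any of them.

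The unfractionated cells showed the same order. In Tconv Pdlim4 stood at 36.3 and 75.3 CPM, and WT Treg held 0 reads in both libraries, at least 253.6-fold lower. Ggt5 stood at 92.3 and 101 CPM in Tconv against 2.31 and 2.64 in WT Treg (-5.29 ± 0.24, edgeR adjusted p = 2.83e-11), and Lypd6b at 37.9 and 30.8 against 1.36 and 2.81 (-4.07 ± 0.32, or -4.66 without WT Treg library 2, edgeR adjusted p = 4.22e-08). With Cd163l1, 4 of the 10 genes were called lower in WT Treg than in Tconv, where 6.68% of all genes were, and 1 (Dsp) was called higher, where 12.1% were. The count of 5 fell to 3 without WT Treg library 1 or either Tconv library, and when these 4 libraries were fitted alone.

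In the effector gates these 3 genes were again lower in Treg. Teff held 6.16 and 5.75 CPM of Pdlim4, and eTreg held 3 reads in one library and 0 in the other, a count ratio of 41.4 in favour of Teff (95% interval 13.8 to 203). Ggt5 fell from 10.7 and 8.21 CPM in Teff to 0.382 and 0.864 in eTreg (-3.89 ± 0.32, edgeR adjusted p = 6.17e-08). Lypd6b fell from 13.4 and 10.6 to 1.53 and 0.480 CPM (-3.56 ± 0.35, edgeR adjusted p = 6.65e-07). Without eTreg library 2 the changes of Ggt5 and Lypd6b were -4.58 and -2.96, and without eTreg library 1 that of Lypd6b was -4.61. In all, 5 of the 10 genes were called lower in eTreg than in Teff, against 7.26% of all tested genes.

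Within conventional cells the same 3 genes were lower in the effector gate. From Tnaive to Teff the log2 change was -3.71 ± 0.37 for Pdlim4 (edgeR adjusted p = 2.85e-07), -3.38 ± 0.19 for Ggt5 (1.07e-10) and -1.68 ± 0.24 for Lypd6b (1.73e-05). From cTreg to eTreg it was -3.30 ± 0.34 for Ggt5 (edgeR adjusted p = 3.8e-07) and -1.44 ± 0.42 for Lypd6b (0.0125). Without eTreg library 2 the change of Ggt5 was -3.98. Without cTreg library 1 or eTreg library 2, Lypd6b was not called (adjusted p = 0.0741 and 0.197), and its change was -0.84 without eTreg library 2 and -2.49 without eTreg library 1. Pdlim4 had 11 reads in cTreg and 3 in eTreg and was not called (edgeR adjusted p = 0.315). These were the 3 genes called lower in Teff than in Tnaive, where 14.0% of all genes were, and Ggt5 and Lypd6b the 2 called lower in eTreg than in cTreg, where 12.3% were.

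The mutant Treg did not reach the naive level of these genes. Pdlim4 averaged 3.96 ± 0.405 CPM in Foxp3R397W Treg and 5.55 ± 0.742 in Foxp3KO Treg, near the 5.95 ± 0.289 of Teff and below the 78.1 ± 8.36 of Tnaive. Ggt5 averaged 31.2 ± 1.48 and 34.5 ± 2.99 CPM, between Teff (9.43 ± 1.73) and Tnaive (97.9 ± 0.646). Lypd6b averaged 13.1 ± 2.76 and 19.1 ± 0.277 CPM, against 12 ± 1.98 in Teff and 38.3 ± 2.81 in Tnaive. These groups belong to separate sets, and no test was made between them.

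**Figure D3:**
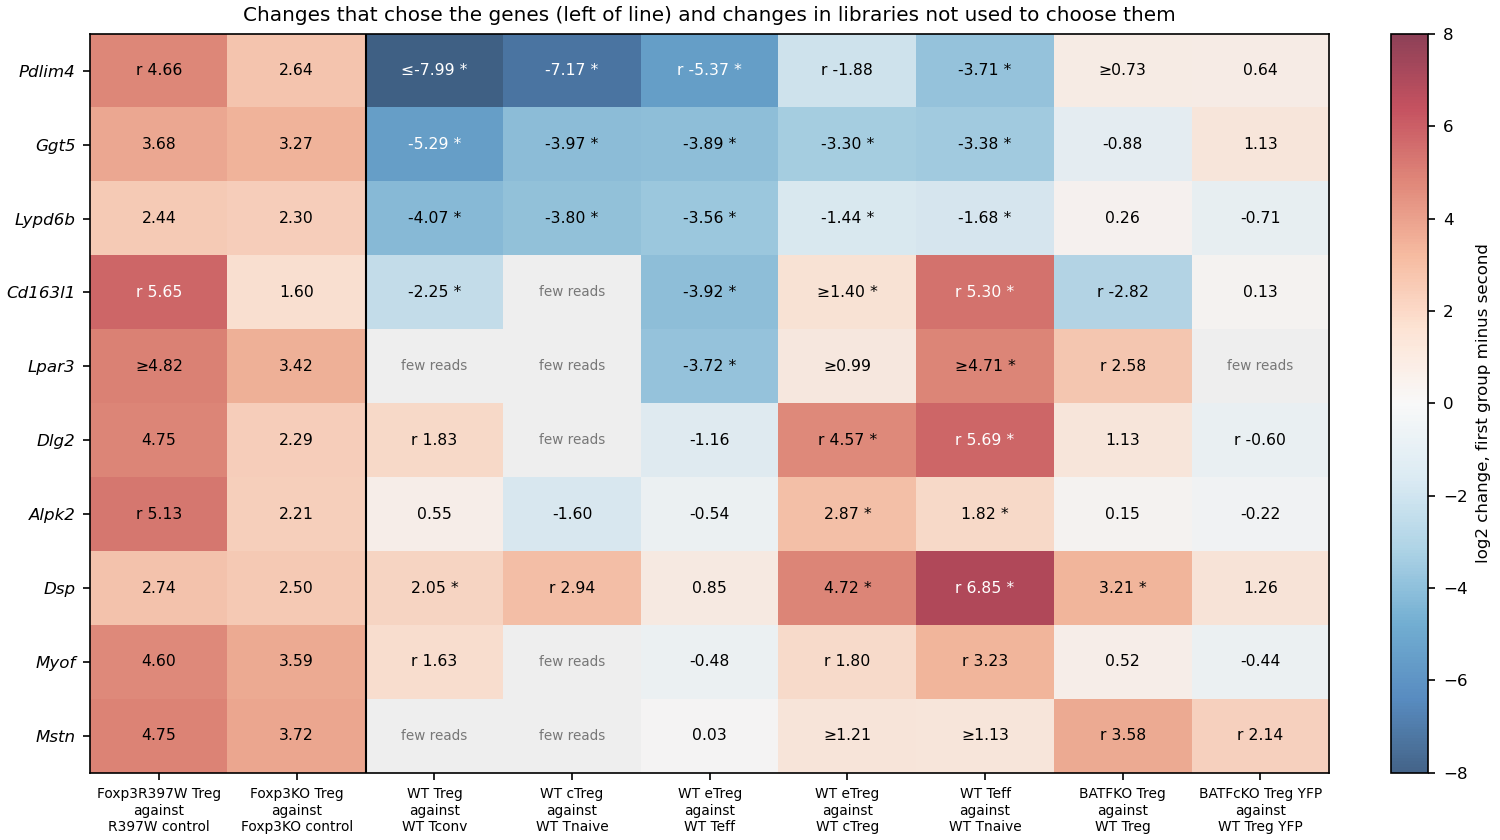
Log2 change (colour and number) of the 10 genes in 9 comparisons, first group minus second, with the 2 comparisons that chose the genes left of the black line. Asterisks mark calls in the comparisons right of the line, "≥" or "≤" a bound against a floor of 3 reads, "r" a ratio of counts where a group held 1 to 3 reads, and grey cells both groups at 3 reads or fewer. Pdlim4, Ggt5 and Lypd6b are negative in the 3 comparisons of Treg with conventional cells.

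Cd163l1 and Lpar3 were highest in Teff among the groups with intact Foxp3. Cd163l1 (chr7:140218267-140231145) stood at 6.84 and 5.11 CPM in Teff and at 0.669 and 0.0960 in eTreg (-3.92 ± 0.59, edgeR adjusted p = 0.000119). Without eTreg library 1 this change was -5.80, and without eTreg library 2 it was -3.14. Tnaive held 3 reads of it and Teff 126, a count ratio of 39.3 (95% interval 13.1 to 193, edgeR adjusted p = 1.22e-05). Lpar3 (chr3:146220963-146286186) stood at 1.76 and 6.02 CPM in Teff, 0 and 0.576 in eTreg, and 0 reads in Tnaive and cTreg. It was lower in eTreg than in Teff by -3.72 ± 0.87 (edgeR adjusted p = 0.00697) and at least 26.2-fold higher in Teff than in Tnaive (edgeR adjusted p = 0.000463). The eTreg call of Lpar3 was lost without eTreg library 1 or Teff library 2 (adjusted p = 0.0835 and 0.122) and when these 4 libraries were fitted alone (0.112). Its change was -2.74 without eTreg library 1, -2.57 without Teff library 2 and -4.34 without Teff library 1, and without eTreg library 2 no read of it remained in eTreg.

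Cd163l1 was also lower in WT Treg (0.544 and 0.496 CPM) than in Tconv (2.65 and 2.41), by -2.25 ± 0.72 (edgeR adjusted p = 0.0368). This call was lost when any 1 of the 4 libraries was left out (adjusted p = 0.0775 to 0.126) and when they were fitted alone (0.0884). From cTreg, with 0 reads, to eTreg, with 7 reads and 1, Cd163l1 was called higher, at least 2.65-fold (edgeR adjusted p = 0.0456). That call rests on 8 reads and was lost without either cTreg library (0.167 and 0.151).

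Dlg2 and Alpk2 were higher in the effector gate of both lineages. Dlg2 (chr7:90476672-92449247) held 8 and 16 reads in eTreg against 1 read over both cTreg libraries (count ratio 23.8, 95% interval 3.89 to 979.9, edgeR adjusted p = 0.00183), and 20 and 35 reads in Teff against 1 in Tnaive (51.5, 8.86 to 2069, edgeR adjusted p = 4.2e-05). Alpk2 stood at 1.62 and 1.34 CPM in eTreg against 0.282 and 0.0991 in cTreg (2.87 ± 0.68, or 3.76 without cTreg library 1, edgeR adjusted p = 0.0029). Teff stood at 1.56 and 2.74 CPM of Alpk2 against 0.713 and 0.499 in Tnaive (1.82 ± 0.52, edgeR adjusted p = 0.0101). The Teff call of Alpk2 was lost without Tnaive library 2 or Teff library 2 (adjusted p = 0.089 and 0.135). Between eTreg and Teff neither was called, at -1.16 ± 0.47 for Dlg2 (edgeR adjusted p = 0.121) and -0.54 ± 0.44 for Alpk2 (0.554). With library number as a block, Dlg2 passed in that comparison (adjusted p = 0.0468). Outside Foxp3R397W Treg, where they stood at 6.15 to 11.2 CPM, neither gene exceeded 3.48 CPM in any library.

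Dsp was higher in the effector gate of both lineages and in unfractionated Treg than in Tconv. It stood at 8.89 and 12.1 CPM in eTreg and 0.188 and 0.594 in cTreg (chr13:38151294-38198577, 4.72 ± 0.57, edgeR adjusted p = 2.63e-06). This change was 4.12 without cTreg library 1 and 5.72 without cTreg library 2. Teff held 123 reads of Dsp against 1 in Tnaive (count ratio 115, 95% interval 20.3 to 4582, edgeR adjusted p = 8.91e-06). Between eTreg and Teff (6.06 and 5.57 CPM) it was not called (0.85 ± 0.36, edgeR adjusted p = 0.138), although it passed when these 4 libraries were fitted alone (0.0282). WT Treg (5.71 and 3.30 CPM) were above Tconv (1.42 and 0.803) by 2.05 ± 0.62 (edgeR adjusted p = 0.0262). That call was lost under 6 of the alternatives, at adjusted p = 0.0626 to 0.206, among them without WT Treg library 1, without either Tconv library and with the library number as a replicate block (0.0681). In these comparisons the summed level of 7 epithelial markers moved in the same direction. It was 25.3 to 26.4 CPM in eTreg against 2.63 to 3.76 in cTreg, and 5.84 to 10.6 in Teff against 3.30 to 4.38 in Tnaive. In WT Treg it was 11.6 to 13.5 CPM against 3.53 to 4.42 in Tconv. In the BATF and Foxp3 mutant comparisons below it moved the other way. Krt5 and Krt14 were at 0 in these groups, and the part of such cells in the levels of Dsp was not tested.

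Counted over the 10 genes, 4 were called higher in eTreg than in cTreg (Dsp, Dlg2, Alpk2 and Cd163l1), against 18.8% of all tested genes, and 5 in Teff than in Tnaive (those and Lpar3), against 21.2%. The rise of Alpk2 with activation was not shown to differ between Treg and conventional cells. For Dsp, Dlg2, Cd163l1 and Lpar3 the 2 rises could not be compared, since cTreg or Tnaive held 3 reads or fewer. Ggt5 and Lypd6b fell in both steps, so their values below concern a fall. In the contrast of both activation steps edgeR called 0 of the 10 genes, with 0 at an unadjusted p below 0.05 and 0 by DESeq2, against 5.42% of all tested genes. It could be read for the 3 genes with over 3 reads in all 4 groups, at 0.08 ± 0.62 for Ggt5, 0.24 ± 0.52 for Lypd6b and 1.06 ± 0.92 for Alpk2 (edgeR adjusted p = 1, 0.993 and 0.809).

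Markers of some other cell types were higher in Teff than in Tnaive. Endothelial markers were lower, at 133 to 139 CPM in Teff against 275 to 284 in Tnaive, and B cell, erythroid and skeletal muscle sums overlapped. The summed level of 8 myeloid and dendritic markers was 39.3 and 128 CPM in Teff and 8.96 to 11 in Tnaive, and that of 6 CD8 and NK markers was 161 to 222 against 21.7 to 25.3. In eTreg the same sums were 8.03 to 11 and 16.5 to 18.0 CPM. Of 7 gamma-delta T cell markers 3 were measured (Sox13, Blk and 5830411N06Rik), and they summed to 12.1 to 18.1 CPM in Teff, 0.815 to 0.899 in Tnaive and 8.26 to 8.60 in eTreg. In Teff 5830411N06Rik alone stood at 15.6 and 10.04 CPM. No marker measured from the myeloid and dendritic, CD8 and NK, or gamma-delta lists was at 0 in Teff. Their part in the Teff levels of Cd163l1, Lpar3, Dlg2, Alpk2 and Dsp was not tested.

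Myof and Mstn had no group outside the Foxp3 mutants in which both libraries reached the 1.38 CPM at which the filter on low counts was set. Myof (chr19:37899036-38043577) ran from 0 to 1.33 CPM in the libraries outside the mutants, highest in BATFKO Treg library 2 and WT Treg YFP library 2 (1.28). Mstn (chr1:53061640-53068079) ran from 0 to 0.935 CPM in them, and Tnaive and cTreg held 0 reads. Both passed the filter only through the mutant groups, so they had to be higher there. From Tnaive to Teff, Myof went from 1 read to 10 and Mstn from 0 to 7 (0 and 7 in the Teff libraries), and edgeR called neither (adjusted p = 0.0705 and 0.111). DESeq2 called Mstn in that step (adjusted p = 0.0402) and from cTreg to eTreg (7 reads against 0, adjusted p = 0.0381). Neither gene was called in any comparison of Treg with conventional cells.

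Set against the other genes called higher in both mutants, the 10 genes were split. Of the 10, 5 were called lower in Treg in at least 1 of the 3 comparisons with conventional cells (50%), and 3 in all 3 (30%). Of the other 160 genes called higher in both mutants, 130 were lower in Treg in at least 1 of them (81.25%) and 60 in all 3 (37.5%). Over all tested genes these shares were 12.3% and 1.62%. Dsp, Dlg2, Alpk2, Myof and Mstn were called lower in Treg in none. For some of these 5 a call was hardly possible. Myof held at most 10 reads and Mstn at most 7 in any group of these 3 comparisons. Dlg2 held at most 4 reads in WT Treg, Tconv, cTreg and Tnaive. The shares of the 10 genes therefore depend in part on low counts. A list of 101 genes called at least 2-fold lower in cTreg (against Tnaive) as well as in eTreg (against Teff) held Pdlim4, Ggt5 and Lypd6b. Of its other 98 genes, 36 were called higher and 1 lower in Foxp3R397W Treg, where 2.18% and 3.94% of all tested genes were. In Foxp3KO Treg 47 were called higher and 2 lower, where 2.62% and 6.39% were.

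The loss of BATF, an AP-1 family factor of effector T cells, left most of the 10 genes without a call. Dsp was the exception, at 25.5 and 60.0 CPM in BATFKO Treg against 5.71 and 3.30 in WT Treg (3.21 ± 0.38, edgeR adjusted p = 7.3e-05), the 1 gene called higher against 1.05% of all tested genes. The BATFKO libraries differed from each other, with a change of 2.49 without library 2, and fitted on these 4 libraries alone Dsp was not called (adjusted p = 0.187). In BATFcKO Treg YFP Dsp stood at 13.8 and 13 CPM against 5.14 and 6.07 (1.26 ± 0.40, edgeR adjusted p = 0.138). It passed there by DESeq2 (adjusted p = 0.045) and when these 4 libraries were fitted alone (0.00566). The 7 epithelial markers were lower where Dsp had the higher mean. They summed to 4.33 to 8.55 CPM in BATFKO Treg against 11.6 to 13.5 in WT Treg. In BATFcKO Treg YFP against WT Treg YFP they summed to 4.82 to 6.75 against 11.7 to 13.6 CPM. EdgeR called 0 of the 10 genes in that comparison, against 2.04% of all tested genes, with 2 at an unadjusted p below 0.05 (Ggt5 and Dsp) and 1 by DESeq2.

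Ggt5 stood at 1.47 and 1.17 CPM in BATFKO Treg against 2.31 and 2.64 (-0.88 ± 0.40, edgeR adjusted p = 0.384), and at 1.90 and 3.38 in BATFcKO Treg YFP against 1.0 and 1.44 (1.13 ± 0.41, 0.243). The difference between both BATF comparisons, a contrast chosen after the counts were seen, was 1.95 ± 0.56 for Dsp and -2.01 ± 0.58 for Ggt5 (edgeR adjusted p = 0.448 for each). In that contrast edgeR called 0 of the 10 genes, with 2 at an unadjusted p below 0.05 and 0 by DESeq2, and 0% of all tested genes. Mstn held 7 and 5 reads in BATFKO Treg against 1 in WT Treg (count ratio 11.9, 95% interval 1.77 to 510), which was not called (edgeR adjusted p = 0.366). Pdlim4 and Lypd6b were at most 1.29 and 2.94 CPM in any BATF-deficient library.

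Relatives of the 10 genes were listed by family or pathway and took no part in the rule that picked the 10, although earlier results of these data were known when the lists were drawn up. Of 123 relatives listed, 119 were matched and 79 passed the filter. In Foxp3R397W Treg 6 of them were called higher and 8 lower, where 2.18% and 3.94% of all tested genes were. In Foxp3KO Treg 7 were called higher and 12 lower, where 2.62% and 6.39% were. Their median log2 changes were -0.01 and -0.04, against -0.01 and 0.01 over all genes. These counts depend on the fit, since 22 and 43 relatives were called when each comparison was fitted on its own libraries, 5 to 8 without R397W control library 4 or either Foxp3R397W library, and 10 without Foxp3KO library 2.

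**Figure D4:**
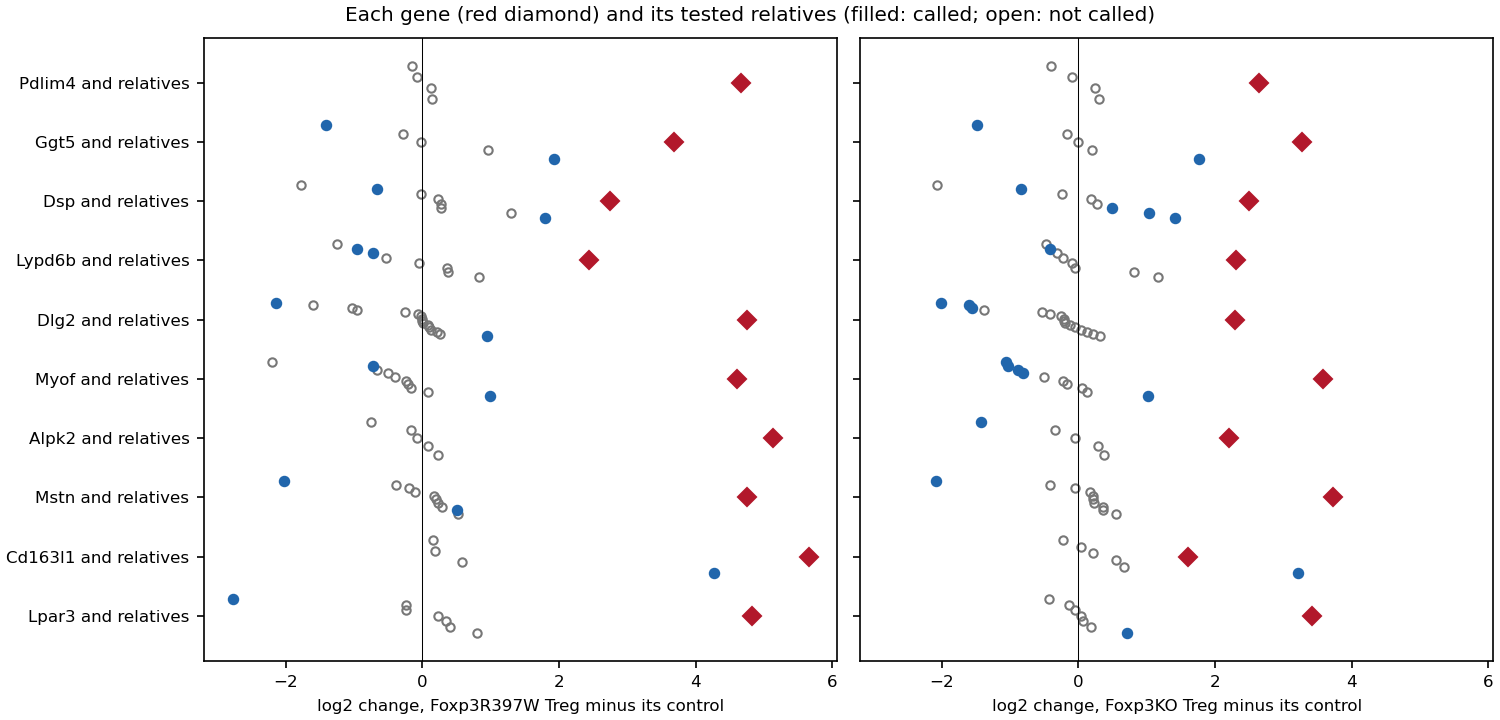
Log2 change of each of the 10 genes (red diamonds) and of its tested relatives (circles, filled where called) in Foxp3R397W Treg (left) and Foxp3KO Treg (right), 1 line for each gene. Values against a group with few reads are drawn at the bound or the ratio of counts, and relatives with both groups at 3 reads or fewer are left out. Most relatives lie near 0; the relative of Cd163l1 at 4.27 and 3.22 is 5830411N06Rik.

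The relative with the largest change was 5830411N06Rik, a scavenger receptor cysteine-rich gene and neighbour of Cd163l1. It stood at 56.4 and 41.3 CPM in Foxp3R397W Treg against 1.83 and 3.21 (4.27 ± 0.46, edgeR adjusted p = 1.41e-05), and at 24.9 and 17.3 in Foxp3KO Treg against 2.68 and 1.86 (3.22 ± 0.38, edgeR adjusted p = 2.18e-05). Both libraries of each mutant were above every control library. Both genes are close paralogs, so reads may be shared between them and the values of each are uncertain. Of the other scavenger receptor relatives, the T cell surface genes Cd5 and Cd6 were not called in either mutant.

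In the pathway of Ggt5, Ggt1, the widely expressed gamma-glutamyltransferase, rose from 2.21 ± 1.19 to 8.39 ± 0.349 CPM in Foxp3R397W Treg (1.93 ± 0.26, edgeR adjusted p = 0.000114) and from 2.06 ± 0.193 to 6.99 ± 0.927 in Foxp3KO Treg (1.76 ± 0.20, edgeR adjusted p = 1.21e-05). Ggt7 fell in both, by -1.41 ± 0.28 and -1.48 ± 0.24. Among the 8 tested desmosome and plakin genes, Jup (plakoglobin, a partner of desmoplakin) rose in both, by 1.80 ± 0.36 and 1.42 ± 0.29, and the plakin Dst fell in both. Pkp4 and Evpl rose in Foxp3KO Treg, by 0.50 ± 0.13 and 1.03 ± 0.29. Of the membrane-associated guanylate kinases, Magi1 fell in both, by -2.14 ± 0.47 and -2.01 ± 0.27. Cask rose in Foxp3R397W Treg (0.94 ± 0.25), and Mpp2 fell in Foxp3KO Treg.

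Among relatives of Myof, the endocytic recycling gene Ehd3 rose from 88.3 ± 2.36 to 176 ± 1.2 CPM in Foxp3R397W Treg (0.99 ± 0.13, edgeR adjusted p = 0.000107) and from 87.3 ± 2.80 to 177 ± 11.5 in Foxp3KO Treg (1.02 ± 0.13, edgeR adjusted p = 3.41e-05). S100a10, a partner of annexin A2 in membrane repair, fell in both, by -0.72 ± 0.13 and -0.88 ± 0.13. Anxa2, S100a11 and Ehd4 fell in Foxp3KO Treg. In the pathway of Mstn, the type I receptor Acvr1b rose by 0.51 ± 0.14 in Foxp3R397W Treg, and Acvr1c, another type I receptor, fell in both (-2.02 ± 0.56 and -2.09 ± 0.43).

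Of the lysophosphatidic acid genes, Enpp2 (autotaxin, which makes the ligand of Lpar3) was lower in Foxp3R397W Treg, with 3 reads against 20 (edgeR adjusted p = 0.0182), and the sphingosine phosphate receptor S1pr1 rose by 0.72 ± 0.12 in Foxp3KO Treg. Ly6e fell in both mutants (-0.72 ± 0.12 and -0.41 ± 0.12) and Ly6a in Foxp3R397W Treg (-0.95 ± 0.18), the opposite direction to Lypd6b. Alpk1 fell in Foxp3KO Treg (-1.42 ± 0.37). None of the 4 tested PDZ-LIM relatives of Pdlim4 (Pdlim1, Pdlim2, Pdlim5 and Pdlim7) was called in either mutant.

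Genes of the Treg program were read in the same comparisons. Of 17 Treg core genes, 13 were called lower and 0 higher in Foxp3R397W Treg (median -0.95), and 14 and 0 in Foxp3KO Treg (-0.99), where 3.94% and 6.39% of all tested genes were called lower. The list holds Foxp3 itself, which was among those called in Foxp3KO Treg and not in Foxp3R397W Treg. Of 10 genes reported as repressed by Foxp3, 5 and 4 were called higher and 0 lower (medians 0.80 and 0.82), where 2.18% and 2.62% of all tested genes were called higher and the medians over all genes were -0.01 and 0.01.

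Markers of other cell types were read beside the 10 genes in the mutants. Endothelial markers summed to 222 to 232 CPM in Foxp3R397W Treg against 183 to 204 in its control. In Foxp3KO Treg they summed to 225 to 241 against 180 to 193 CPM. B cell markers were lower in both mutants. Stromal and erythroid markers were lower in Foxp3R397W Treg and overlapped in the Foxp3KO set. Myeloid and dendritic, and CD8 and NK, markers overlapped in both sets. Their part in the 10 genes was not tested. The summed level of the 3 gamma-delta T cell markers measured was 43.6 to 67.4 CPM in Foxp3R397W Treg against 2.6 to 4.18 in the control, and 18.6 to 27.9 in Foxp3KO Treg against 2.6 to 3.25. Most of these sums came from 5830411N06Rik (56.4 and 41.3 CPM, and 24.9 and 17.3), which may share reads with Cd163l1. Sox13, another of the 3, was at 0 reads in Foxp3R397W Treg against 0.31 and 0 CPM in the control. In Foxp3KO Treg it was at 0.26 and 0.13 CPM against 0.12 and 0.13 in the control. It stood at 0.88 CPM or less in every library, so its levels were too low to be read. Blk, also among these markers, was higher in both libraries of each mutant than in its control. It stood at 11.02 and 2.34 CPM in Foxp3R397W Treg against 0.458 and 0.964 in the control. In Foxp3KO Treg it stood at 2.79 and 1.22 CPM against 0.447 and 0.607. The part of such cells in the levels of Cd163l1 was not tested. The summed level of 7 epithelial markers was 3.22 to 3.91 CPM in both mutants against 11.5 to 14.6 in both controls, with Krt14 at 0 in all of them, so in the mutants these markers were lower where Dsp was higher. Skeletal muscle markers summed to 6.46 to 7.17 CPM in the mutants and 5.47 to 7.24 in the controls, with Myh4 at 0, where Mstn was higher.

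The genes most like each of the 10 in pattern were found by Pearson r of log2(CPM + 1) over the 13 group means. The groups share libraries and sets, so these values are a description. The means include the mutant groups that chose the genes, so likeness among the 10 is partly set by the choice. Ggt5 and Lypd6b were most alike (0.97), and Lypd6b was most like Tcf7 (0.98), a transcription factor gene of naive T cells. Pdlim4 was most like Elovl7 (0.97) and P4ha2 (0.96). Dlg2 and Alpk2 were most like each other (0.97), followed for both by Blk (0.95 and 0.94), and Lpar3 was most like Dlg2 (0.95). Cd163l1 was most like Il17re (0.89). Dsp was most like Igfbp7 (0.97), at 13.1 and 15.8 CPM in BATFKO Treg and 14.2 and 6.15 in Foxp3R397W Treg.

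Myof and Mstn were most like each other (0.97), followed for both by Il17a, a cytokine gene of Th17 and gamma-delta T cells (0.94 and 0.95). Myof and Mstn passed the filter only through the mutant groups, so this likeness follows largely from those groups. Il17a stood at 66.6 and 39.4 CPM in Foxp3R397W Treg and at 19.2 and 10.5 in Foxp3KO Treg, against 0.31 and 0.96, and 0.28 and 0.24, in the controls. It was at or under 1.47 CPM in all other libraries. Library 1 of each mutant had the higher Il17a, whereas Mstn in Foxp3KO Treg was higher in library 2. Most of these names depend on the groups and the pseudocount. In 16 alternative rankings at least 1 of the 2 closest genes was another, and in 4 both stayed. Over the 9 groups without the Foxp3 mutant sets, Myof was most like Dut and Dpf2, and Mstn most like Igfbp7 and Phc2. There Dlg2 was most like Rab11fip5 and Efhd2, and Alpk2 most like Abr and Plekho1. Lypd6b kept Tcf7, and Dsp kept Tspan2.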

How the data were processed

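Poly(A) RNA libraries were aligned to mm10 with STAR 2.6.1c, per the submitters' processing notes, and the authors deposited read counts per gene as whole numbers. Tool and strand setting of the counting are not given in the sources used here. Per the labels' protocols, libraries were made with NEBNext Ultra Directional or UltraII kits. From these counts, 4 columns that matched no sample label were left out. The 10 genes and the lists of relatives and markers were chosen with earlier results of these data known.

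Counts of all 26 libraries were fitted with edgeR 4.0.16 and limma 3.58.1 under R 4.3.3: expression filter, which left 12227 of 24411 genes, TMM scaling, and robust quasi-likelihood fits of 13 group means, leaving 13 residual degrees of freedom. Comparisons were contrasts with Benjamini-Hochberg adjustment over all tested genes. The SE was taken as the size of the log2 change over the root of its F statistic. Where a group held 0 reads, the fold is a lower bound against a floor of 3 reads over the group. With 1 to 3 reads, the ratio of the scaled counts has a 95% exact interval, and with both groups at 3 or fewer no fold is given. These cover counting error only, since PCR-amplified reads are not independent molecules. Values against such groups in the difference contrasts are not given. Totals of 5615929 to 34613707 reads limit the precision of genes near 1 CPM. Correlation of patterns used log2(CPM + 1), naming the 2 closest genes of at least 5 CPM in some group.

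Relatives are named where called, except 1 that is not reported here, and others after their values were seen. Positions are gene spans from the GENCODE M21 annotation of mm10, and promoter windows are from RefSeq. The model was tested on simulated data. Alternatives were edgeR's RLE scaling, no filter, DESeq2 1.42.0, only the compared libraries, each library left out, a replicate block and, for patterns, other groups and a pseudocount of 0.25.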

Additional observations from a re-analysis of the deposited data

How the results depend on the processing

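With 2 libraries a group, calls of genes near 1 CPM rest on few reads and on a spread shared over all libraries. Counts of the 10 genes called changed by over 1.5 times in 3 comparisons. Fitted on the compared libraries alone, 3 genes rather than 5 passed in WT Treg against Tconv, 0 rather than 1 in BATFKO Treg and 1 rather than 0 in BATFcKO Treg YFP, where DESeq2 also called 1. Of the relatives, 22 rather than 14 were then called in Foxp3R397W Treg and 43 rather than 19 in Foxp3KO Treg. Leaving out 1 library at a time gave 3 to 4 genes in WT Treg against Tconv, 3 in cTreg against Tnaive, 4 to 5 in eTreg against Teff, 4 to 5 in eTreg against cTreg, 7 to 9 in Teff against Tnaive, 1 in BATFKO Treg and 0 in BATFcKO Treg YFP. It gave 5 to 10 relatives in Foxp3R397W Treg and 10 to 19 in Foxp3KO Treg, and medians of the 10 genes of 4.32 to 4.96 and 2.58 to 2.85. The cause was not tested.

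With the library number as a replicate block, the counts of the 10 genes in these 7 comparisons were 4, 3, 6, 6, 8, 1 and 0, and 0 in both difference contrasts. The labels state no pairing, and with 2 numbers a set none was assumed. Deviations of same-numbered libraries correlated at 0.59 to 0.66 in the germline set, 0.31 in the YFP set and 0.09 to 0.27 in the sorted set. Under the block the genes called over all tested genes rose from 329 to 1036 in BATFKO Treg, from 249 to 1115 in BATFcKO Treg YFP, from 2292 to 4168 in WT Treg against Tconv, from 1492 to 2897 in cTreg against Tnaive, from 1892 to 3609 in eTreg against Teff, from 3800 to 5973 in eTreg against cTreg and from 4312 to 6486 in Teff against Tnaive. Fitted on the compared libraries alone they were 2, 378, 519, 2933, 2331, 5851 and 5356 in that order, and 1416 rather than 749 in Foxp3R397W Treg and 4121 rather than 1101 in Foxp3KO Treg.

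Single values turned sign under 19 alternatives, all of them uncalled. With no filter Mstn in eTreg against Teff was -0.0048. The other 18 came from leaving out 1 library at a time, and the whole ranges were as follows. Mstn in eTreg against Teff ran from -0.91 to 4.94. In BATFKO Treg, Lypd6b ran from -0.21 to 0.85, Myof from -0.92 to 1.34 and Alpk2 from -1.43 to 1.0. In BATFcKO Treg YFP, Pdlim4 ran from -0.60 to 2.45, Alpk2 from -0.49 to 0.028 and Cd163l1 from -1.34 to 1.73. In the difference of the activation steps, Ggt5 ran from -0.61 to 0.55 and Lypd6b from -0.81 to 0.84. In the difference of the BATF comparisons, Myof ran from -0.51 to 1.78 and Alpk2 from -1.24 to 1.22. The cause was not tested here either.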
